A study of Homo sapiens with 24 samples.

Results

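The genes described here encode the subunits of the mitochondrial respiratory chain and ATP synthase, followed in a human leukaemia cell line grown with type I JAK inhibitors. Members were taken from the deposited gene table by symbol, with a mean normalised count of at least 50 over the 24 libraries. The nuclear symbols were NDUFA, NDUFB, NDUFC, NDUFS, NDUFV, SDHA to SDHD, UQCR, COX5 to COX8 and ATP5 genes. The mitochondrial ones were the MT-ND, MT-CO, MT-CYB and MT-ATP genes. COX4I1 and COX4I2 lack the A, B or C that the COX pattern asks for, so they are not members. Of 132 symbols that matched, 39 were left out for a pseudogene suffix and 4 for a low mean, which left 89 of the 25082 genes, 76 nuclear and 13 mitochondrially encoded. MT-ATP6 and MT-ATP8, whose names end like a pseudogene's, were kept. Just under the minimum lay ATP5L2 (23.7), UQCR11 (12.7) and COX7A1 (2.19), and just above it NDUFV2 (100.3), NDUFA7 (197) and COX6B2 (215). The nuclear members comprised 36 genes of complex I, 4 of complex II, 7 of complex III, 12 of complex IV and 17 of complex V. The last number counts ATP5S and ATP5SL, which carry the symbol without being ATP synthase subunits. The 13 mitochondrial members comprised 7 of complex I, 1 of complex III, 3 of complex IV and 2 of complex V.

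SET2 cells, an established megakaryoblastic line from a myeloproliferative neoplasm that depends on JAK2 signalling, were studied in 8 groups of 3 libraries of poly(A) RNA. Of the groups, 4 were persistent lines grown continuously in BMS911543, CYT387 (momelotinib), INC424 (ruxolitinib) or SAR302503 (fedratinib), and another was naive cells with no inhibitor. The remaining 3 were naive cells given the vehicle DMSO for 4 h, INC424 for 4 h or INC424 for 48 h. The labels give no concentration and no clone. Nor do they tell if replicates came from different cultures, and the p-values rest on the spread between libraries, which may be technical. The vehicle was sampled at 4 h, so the 48 h group differed from it in time as well as in inhibitor.

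Complex I passes electrons from NADH, and complex II from succinate, to ubiquinone. Complex III passes them on to cytochrome c and complex IV to oxygen, while complexes I, III and IV pump the protons that drive ATP synthase, complex V. Complex II is wholly nuclear-encoded, and each of the others combines nuclear subunits made in the cytosol with core subunits translated inside the organelle, so its assembly draws on both genomes. Mitochondrial messages are cut from long transcripts of both strands of the circular genome and most carry short poly(A) tails.

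Libraries held 21770721 to 36160750 reads in genes. Levels are normalised counts, listed per library in the order of the replicate numbers or as mean ± SD (n = 3). Changes are fitted log2 differences ± SE, and a gene is said to be higher, lower, to rise or to fall only where limma gave an adjusted p under 0.05. Of the megakaryoblastic marker list 9 of 10 genes were in the table, none at 0 in any library, with 0.286% to 0.758% of reads. Library 2 of the CYT387 line stood apart: the squamous epithelium list took 0.536% of its reads and the stroma, vessel and macrophage list 0.305%, while its megakaryoblastic share was the lowest of all. Epithelial reads also reached 0.109% in the SAR302503 line, 0.0267% in the INC424 line and 0.0231% at 48 h, against at most 0.00189% in naive and 0.00706% in DMSO libraries. The part of such RNA in the results was not tested, except where values without these libraries are given. Since RNA was measured in bulk, a smaller number of cells with a message and less of it per cell cannot be told apart.

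Nuclear respiratory chain genes stood higher in the INC424 and SAR302503 lines than in naive cells, and less so in the other lines. Of the 76 nuclear members, 25 were higher and 1 lower in the INC424 line, where 9.95% of all 20154 genes tested were higher and 12.5% lower. In the SAR302503 line 28 were higher and 0 lower, against 8.70% and 10.6% of all genes. There 49 of the 76 reached an unadjusted limma p below 0.05 in either direction, and edgeR and DESeq2 also called 0 lower, with 30 and 32 higher. In the CYT387 line 16 were higher and 5 lower, against 11.2% and 11.1% of all genes (22.3% either way). Fewer members were called there without library 2 of that line, the one richest in epithelial RNA. Fewer still were called in a fit of that line and naive cells alone, as given with the processing alternatives below. In the BMS911543 line 7 were higher and 8 lower, against 10.4% and 14.2% of all genes, so the members' shares there were near or below the background. The median nuclear member differed from naive by 0.46 on the log2 scale in the SAR302503 line, 0.38 in the INC424 line, 0.20 in the CYT387 line and 0.08 in the BMS911543 line, while the median of all genes lay within 0.03 of 0. For the mean of the 4 lines, 26 nuclear members were higher and 2 lower, against 9.79% and 12% of all genes (21.8% either way). All 4 comparisons share the naive libraries, so they are not independent of each other. All 89 members passed the filter on low values. Without the 4 libraries richest in epithelial RNA, 38 nuclear members were higher and 5 lower in the INC424 line, and 38 higher and 1 lower in the SAR302503 line, while the share of all genes called there grew to 36.1% and 35.2%. Left out, naive library 3 brought the counts of members called to 14 in the INC424 line, against 26 with it, and to 19 in the SAR302503 line, against 29.

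The reads of the 76 nuclear genes together took 0.757% ± 0.051 of the library in the SAR302503 line, 0.719% ± 0.029 in the INC424 line, 0.635% ± 0.017 in the CYT387 line and 0.628% ± 0.020 in the BMS911543 line, against 0.572% ± 0.046 in naive cells (SD, n = 3). The libraries of the SAR302503, INC424 and CYT387 lines all lay above the naive ones, and those of the BMS911543 line overlapped them. DMSO libraries, given no inhibitor, also all lay above the naive ones. Their mean of 0.660% ± 0.014 was higher than those of the CYT387 and BMS911543 lines. An exact two-sided permutation test gave p = 0.10 for each of the 3 lines that lay apart, the smallest p that 3 against 3 libraries allow, and p = 0.20 for BMS911543. Over the 12 libraries of the 4 lines the share was 0.685% ± 0.064, and the same exact permutation test against the 3 naive libraries gave p = 0.0154, which was no longer below 0.05 without naive library 2 or 3. That test took the 12 libraries as interchangeable, although they came from 4 lines. Its p thus does not measure the spread between lines.

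**Figure D1:**
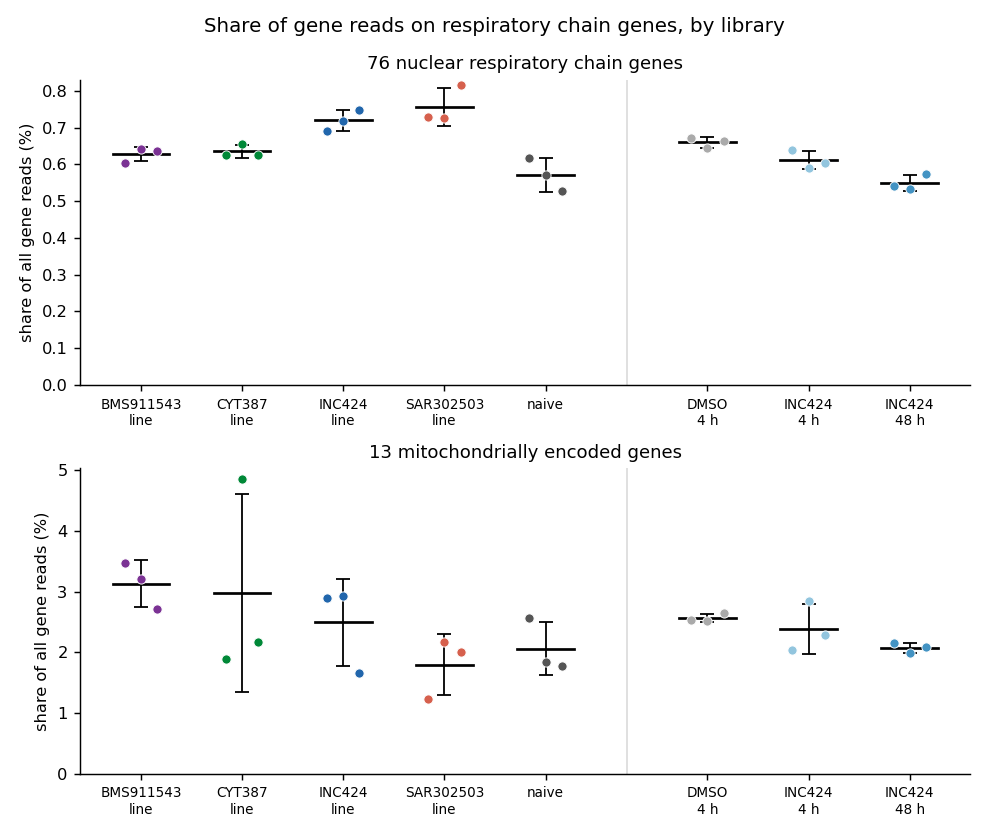
Share of all gene reads, in percent, on the 76 nuclear (top) and 13 mitochondrially encoded (bottom) respiratory chain genes; each point is a library, bars are the mean and SD of 3 libraries. The nuclear share is highest in the SAR302503 line (0.757%) and lowest at 48 h of INC424 (0.548%), while CYT387 line library 2 (4.85%) sets the spread of the mitochondrial share.

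In complex III, UQCR10, a small subunit of the cytochrome bc1 complex, read 3020, 2875 and 2861 in the INC424 line, 2740.1, 2924 and 2571 in the BMS911543 line, 2973, 2156 and 2781 in the CYT387 line and 2036, 1909.9 and 3212 in the SAR302503 line. Naive libraries read 1303, 1428 and 1290.2, so no library of a line reached down to them. The log2 differences from naive were 1.12 ± 0.15 (adjusted p = 8.54e-06) in the INC424 line, 1.03 ± 0.15 (adjusted p = 2.59e-05) in the BMS911543 line, 0.96 ± 0.15 (adjusted p = 1.13e-04) in the CYT387 line and 0.79 ± 0.15 (adjusted p = 7.32e-04) in the SAR302503 line. DMSO-treated cells, given no inhibitor, also differed from naive cells in UQCR10, by 0.57 ± 0.15 (adjusted p = 0.0091). UQCRQ, another small subunit of the complex, was higher in the SAR302503 line by 1.11 ± 0.29 (adjusted p = 0.00824), the CYT387 line by 0.95 ± 0.29 (adjusted p = 0.0219) and the INC424 line by 0.92 ± 0.29 (adjusted p = 0.0233). UQCRB, which lies at the ubiquinone-binding site, went the other way: it read 3096, 3244 and 3189 in the BMS911543 line against 8412, 5691 and 6251 in naive cells, a difference of −1.07 ± 0.22 (adjusted p = 9.60e-04). In the CYT387 line it differed by −0.78 ± 0.22 (adjusted p = 0.0157). The large core proteins UQCRC1 and UQCRC2, which have no redox centre, differed from naive by 0.54 ± 0.13 (adjusted p = 0.00516) and 0.22 ± 0.10 (adjusted p = 0.153) in the SAR302503 line, so that UQCRC1 alone of the pair passed the test there. The call of UQCRB in the CYT387 line was lost without library 2 of that line (adjusted p = 0.0942) or naive library 1 (0.0899).

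In complex IV, the small subunit COX7B averaged 1901 ± 297 in the SAR302503 line, 1530 ± 857 in the CYT387 line, 1443 ± 327 in the BMS911543 line and 1392 ± 175 in the INC424 line, against 724 ± 86.4 in naive cells. Its log2 differences ran from 0.94 ± 0.26 (adjusted p = 0.0118) in the INC424 line to 1.39 ± 0.26 (adjusted p = 6.04e-04) in the SAR302503 line. NDUFA4, first taken for a complex I protein and now placed in complex IV, differed by 1.28 ± 0.28 (adjusted p = 0.00234) in the SAR302503 line and 0.82 ± 0.28 (adjusted p = 0.0352) in the BMS911543 line. In DMSO against naive cells COX7B differed by 1.29 ± 0.26 (adjusted p = 9.71e-04) and NDUFA4 by 0.93 ± 0.28 (adjusted p = 0.0179), so both also stood above naive without an inhibitor. COX7A2 reached 3659, 3852 and 5265 in the SAR302503 line, against 1743, 1861 and 1638 in naive cells, a difference of 1.27 ± 0.19 (adjusted p = 4.34e-05). COX6C, which braces the enzyme's membrane core, differed by 1.13 ± 0.22 (adjusted p = 9.09e-04) in the SAR302503 line and 1.04 ± 0.22 (adjusted p = 0.00144) in the INC424 line. COX5A, a subunit on the matrix side, differed by 0.91 ± 0.14 (adjusted p = 2.35e-05) in the BMS911543 line and 0.79 ± 0.14 (adjusted p = 1.37e-04) in the INC424 line. COX5A and COX7A2 also passed the test in DMSO against naive cells, so they too differed from naive without an inhibitor. COX7A2L, which promotes the joining of complexes III and IV, was lower in the BMS911543 line, with 2057, 1983 and 1991 against 3716, 3008 and 3247 in naive cells and a difference of −0.72 ± 0.12 (adjusted p = 9.96e-05). Of the 12 nuclear complex IV genes, 3 were higher and 4 lower in the BMS911543 line, against 10.4% and 14.2% of all genes. COX5B and COX8A were also among the lower ones. COX7B lost its call in the INC424 line without library 3 of the line (adjusted p = 0.0573) or naive library 3 (0.0557), and in the BMS911543 line without library 3 of the line (0.0583). NDUFA4 lost its call in the BMS911543 line without any 1 library of that line or naive library 2 or 3 (adjusted p of 0.0733 to 0.15), and in DMSO without DMSO library 1 or 3 or naive library 2 or 3 (0.0528 to 0.0917).

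In complex I, the membrane-arm subunit NDUFB2 read 375, 463 and 424 in the BMS911543 line, 374, 352 and 554 in the SAR302503 line and 326, 819 and 346 in the CYT387 line, against 207, 214 and 146 in naive cells. NDUFB2 also differed by 1.29 ± 0.30 (adjusted p = 0.00285) in DMSO against naive cells. The differences of the lines were 1.17 ± 0.30 (adjusted p = 0.00624), 1.16 ± 0.30 (adjusted p = 0.00832) and 1.28 ± 0.30 (adjusted p = 0.00443) in the same order, and 0.78 ± 0.30 (adjusted p = 0.0659) in the INC424 line. Exons of this gene overlap those of BRAF, ADCK2 and an antisense gene in GENCODE 29, and how the counting treated strand is not given in the sources used here. The membrane-arm subunit NDUFB6 was higher in the SAR302503 line by 0.88 ± 0.16 (adjusted p = 3.92e-04) and in the INC424 line by 0.87 ± 0.16 (adjusted p = 3.05e-04), with the 3 libraries of each line above all naive libraries. NDUFA13, also known as the cell death regulator GRIM-19, read 398, 1615 and 384 in the CYT387 line, against 257, 287 and 269 in naive cells, and differed by 1.21 ± 0.36 (adjusted p = 0.0216). Library 2 of that line, the one with epithelial RNA, was far above its partners. NDUFC2 was lower in the BMS911543 line, with 603, 617 and 640.4 against 1192, 1082 and 746, a difference of −0.67 ± 0.15 (adjusted p = 0.00165). NDUFA13 lost its call without library 2 of the CYT387 line (adjusted p = 0.125), naive library 1 (0.0636) or naive library 3 (0.0525), and NDUFB2 in the SAR302503 line without naive library 3 (0.0534).

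In complex V, the catalytic-head subunit ATP5A1 averaged 14642 ± 1428 in the SAR302503 line and 12973 ± 877 in the INC424 line, against 9834 ± 1341 in naive cells, with differences of 0.58 ± 0.11 (adjusted p = 6.95e-04) and 0.41 ± 0.11 (adjusted p = 0.0104). The catalytic subunit ATP5B, the most counted nuclear member, differed by 0.36 ± 0.13 (adjusted p = 0.0562) and 0.28 ± 0.13 (adjusted p = 0.13) in these lines and did not pass the test. ATP5E, of the central stalk, was higher by 0.98 ± 0.17 (adjusted p = 2.44e-04) in the SAR302503 line and 0.77 ± 0.17 (adjusted p = 0.00176) in the INC424 line. ATP5I, of the membrane part, differed by 1.20 ± 0.43 (adjusted p = 0.0481) in the INC424 line. ATP5D, of the central stalk, differed by 1.12 ± 0.30 (adjusted p = 0.0112) in the CYT387 line, where it read 526, 1352 and 787 against 359, 521 and 294 in naive cells. Library 2 of the line was again the highest. ATP5I lost its call in 18 of the fits that left out 1 library (adjusted p of 0.0518 to 0.156). ATP5D lost it without library 2 of the CYT387 line (0.0617) or naive library 3 (0.0593), and ATP5A1 in the INC424 line without naive library 3 (0.0689).

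**Figure D2:**
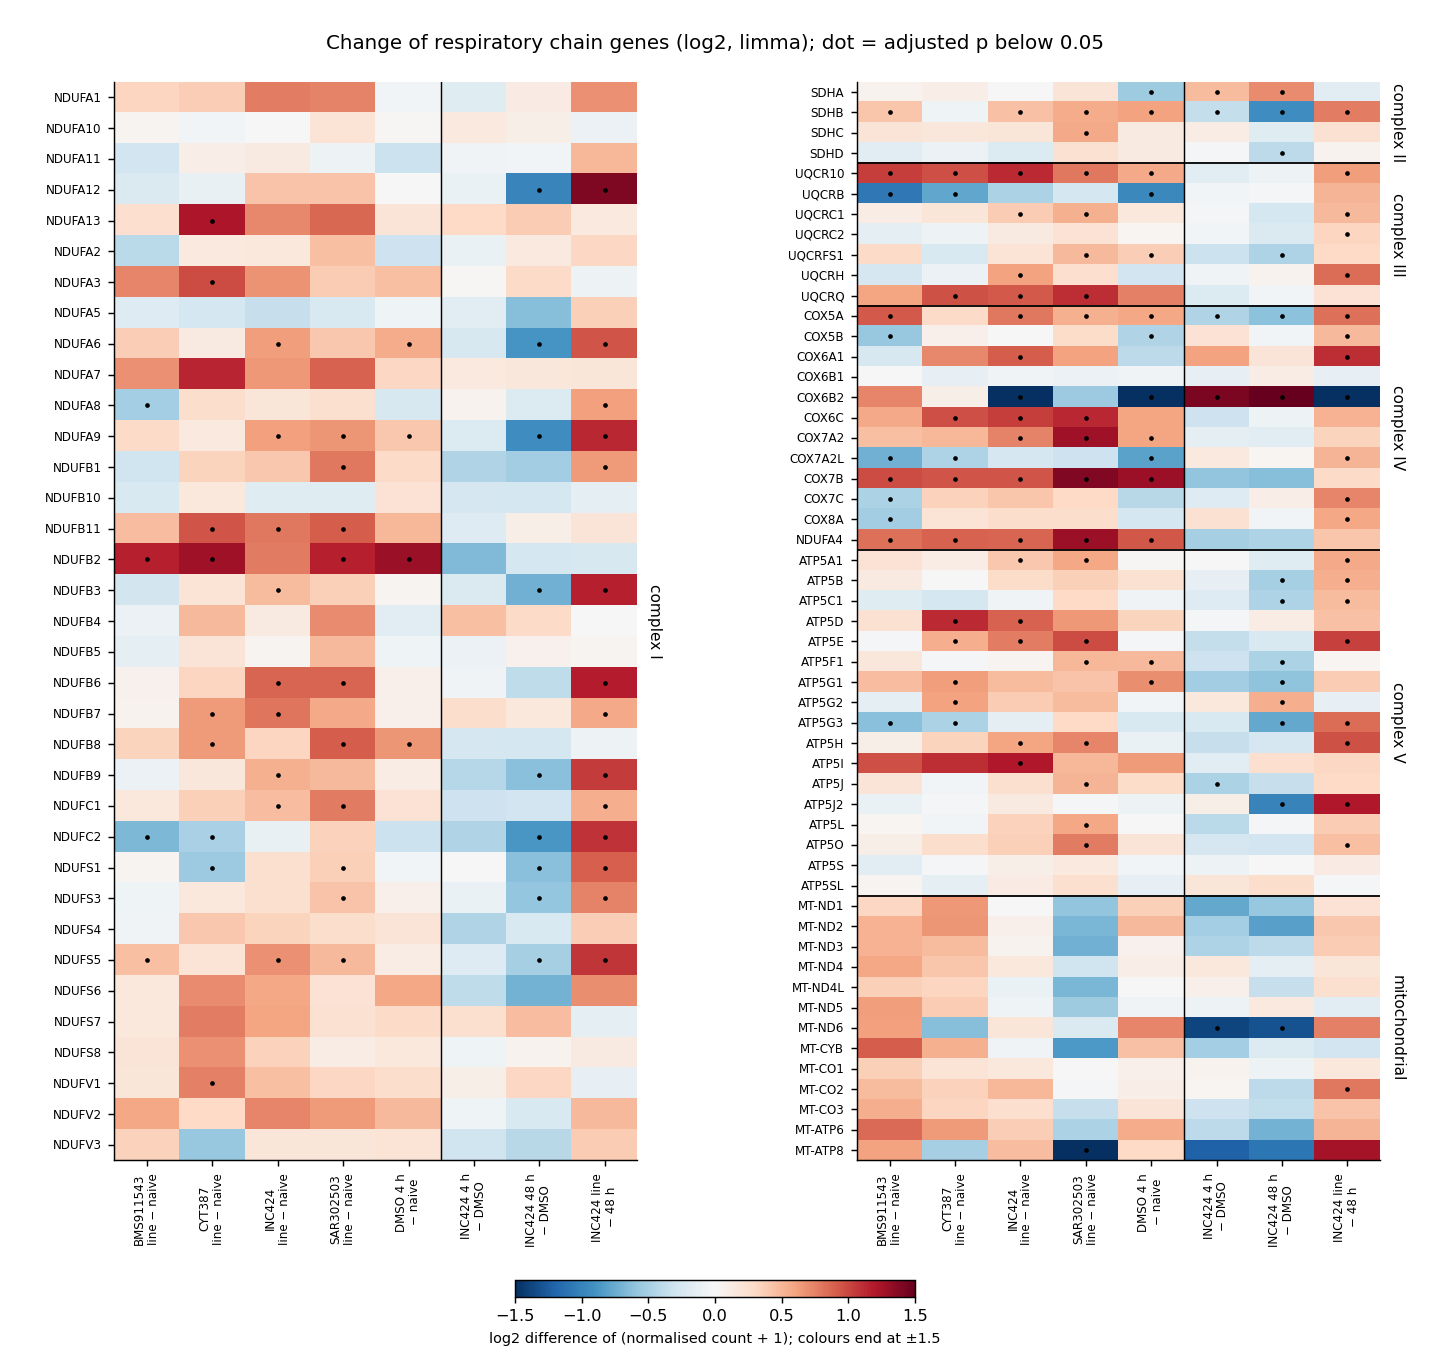
Fitted log2 difference of the respiratory chain genes (rows, grouped by complex and genome, with 1 gene not shown) in 8 comparisons (columns, each the first group minus the group after the minus sign); red is higher, blue lower, and a dot marks an adjusted p below 0.05. Complex III and IV genes such as UQCR10, COX7B and NDUFA4 are red in the line columns, while UQCRB and COX7A2L are blue for BMS911543. The INC424 48 h column holds 20 dots on lower genes, SDHB and NDUFA12 among them.

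At 48 h of INC424 a part of the nuclear members was lower than in DMSO, and a few were higher. At 4 h, 2 nuclear members were higher and 3 lower than in DMSO, against 4.88% and 3.49% of all genes, 8.37% either way, and the median member differed by −0.12. The members' shares at 4 h were near or below the background. At 48 h, 19 were lower and 4 higher than in DMSO, against 16.4% and 17.6% of all genes, 33.9% either way, with a median of −0.21. The share of nuclear members that were lower was 25% and the share that were higher 5.26%. Either way 30.3% were called, so the calls leaned to lower but were no more frequent than among all genes. Without the 4 libraries richest in epithelial RNA, 26 were lower and 4 higher, where 22.2% and 23.4% of all genes were. Between 48 h and 4 h of INC424, 10 were lower and 0 higher, against 7.69% and 7.03% of all genes. In that comparison 15 reached an unadjusted limma p below 0.05, DESeq2 called 11 lower and 1 higher, and edgeR called 10 lower and 0 higher. The lower members at 48 h included 9 of 36 in complex I, 2 of 4 in complex II, 1 of 7 in complex III, 1 of 12 in complex IV and 6 of 17 in complex V. The summed nuclear share was 0.660% ± 0.014 in DMSO, 0.612% ± 0.025 at 4 h and 0.548% ± 0.022 at 48 h, with no overlap between these groups (exact two-sided permutation p = 0.10 for each pair, the smallest possible). Histone genes, whose main messages lack poly(A) tails, took 0.0156% ± 0.0009 of reads in DMSO, 0.0140% ± 0.0001 at 4 h and 0.0253% ± 0.0008 at 48 h, and the part of that difference in these results was not tested.

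DMSO and naive libraries differed from each other, so the choice of control bears on the 4 h and 48 h results. It bears also on the results of the lines, whose control was naive cells. In DMSO against naive cells, 13 nuclear members were higher and 6 lower, against 11.4% and 14.6% of all genes, and the summed share was 0.660% ± 0.014 in DMSO against 0.572% ± 0.046 in naive cells. The lower ones included UQCRB, with a difference of −0.96 ± 0.22 (adjusted p = 0.00267), and COX7A2L, with −0.80 ± 0.12 (adjusted p = 3.92e-05). With naive cells as the control, 14 members were lower and 2 higher at 48 h, where 11.4% and 8.67% of all genes were (20.0% either way), and the nuclear median was −0.07. The fall of NDUFA12, NDUFA9, NDUFB3, NDUFB9, NDUFC2, NDUFS1, NDUFS3, SDHB, ATP5C1, ATP5G3 and ATP5J2 passed the test against either control. The other 8 nuclear members lower at 48 h than in DMSO did not pass against naive cells: NDUFA6, NDUFS5, SDHD, UQCRFS1, COX5A, ATP5B, ATP5F1 and ATP5G1. Of the 4 members higher at 48 h than in DMSO, none passed against naive cells.

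Complex I held 9 of the 19 nuclear members that fell at 48 h. NDUFA12, an accessory subunit of the matrix arm, read 1319, 1196 and 1135 in DMSO, 902, 793 and 2030.2 at 4 h and 555, 658 and 629.8 at 48 h. All 48 h libraries lay below every other library of these 3 groups, while library 3 at 4 h was far above its partners. The difference from DMSO at 48 h was −0.99 ± 0.25 (adjusted p = 0.00346), and that from naive cells −0.98 ± 0.25 (adjusted p = 0.00698). NDUFA9, an accessory subunit beside the ubiquinone site, read 1791, 1678 and 1982 in DMSO, 1900.4, 1632 and 1249.6 at 4 h and 1030.4, 877 and 956 at 48 h, and differed from DMSO by −0.93 ± 0.14 (adjusted p = 2.81e-05) at 48 h. NDUFA6 differed by −0.88 ± 0.15 (adjusted p = 8.29e-05) and NDUFB3 by −0.72 ± 0.16 (adjusted p = 0.00105), while from naive cells NDUFA6 differed by −0.32 ± 0.15 (adjusted p = 0.142). NDUFS1, the iron-sulphur core protein of the NADH-oxidising end, read 2133, 2244 and 2319 at 48 h against 3551, 3545 and 3221 in DMSO, a difference of −0.62 ± 0.11 (adjusted p = 9.76e-05).

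In complex II the flavoprotein and the iron-sulphur subunit, partners in the soluble head of the enzyme, moved apart. SDHA, which oxidises succinate, read 4144, 4199 and 4732 in DMSO, 5794, 6354 and 6058 at 4 h and 7653, 6795 and 6890.1 at 48 h. SDHB, which carries the electrons on, read 2938, 2848 and 2752 in DMSO, 2305, 2189.9 and 2184 at 4 h and 1538, 1472 and 1455 at 48 h. For both genes the 3 groups did not overlap. SDHA differed from DMSO by 0.48 ± 0.11 (adjusted p = 0.0072) at 4 h and 0.71 ± 0.11 (adjusted p = 3.08e-05) at 48 h, and SDHB by −0.35 ± 0.09 (adjusted p = 0.0216) and −0.93 ± 0.09 (adjusted p = 1.41e-07). The ratio of SDHA to SDHB counts was 1.54 ± 0.16 in DMSO, 2.73 ± 0.20 at 4 h and 4.78 ± 0.18 at 48 h. In naive cells it was 3.38 ± 0.48, with SDHA at 5434, 6355 and 7195 and SDHB at 1885, 1856 and 1871. SDHA at 48 h thus differed from naive cells by 0.18 ± 0.11 (adjusted p = 0.281) and SDHB by −0.33 ± 0.09 (adjusted p = 0.0166). At 4 h SDHA differed from naive cells by −0.05 ± 0.11 (adjusted p = 0.82) and SDHB by 0.25 ± 0.09 (adjusted p = 0.0923). Neither passed the test, and both signs were opposite to those against DMSO. The membrane anchor SDHD was lower at 48 h than in DMSO, with a difference of −0.39 ± 0.14 (adjusted p = 0.0355), and the other anchor SDHC differed by −0.18 ± 0.14 (adjusted p = 0.36). SDHA has near-identical copies in the table, SDHAP1 with 417 ± 55 at 48 h against 259 ± 23 in DMSO and SDHAP2 with 1069 ± 156 against 831 ± 51, and the counting could have split reads between them. SDHB at 4 h lost its call without library 2 or 3 at 4 h or DMSO library 1 or 2 (adjusted p of 0.0697 to 0.0938), and SDHD at 48 h without any 1 library at 48 h or DMSO library 1 or 2 (0.0576 to 0.131).

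The promoters of these partners are shown because the genes moved apart, along with those of NDUFA12 and NDUFA9, which fell. Each is the 250 bases before the start site from RefSeq (GRCh38.p14), 5′ to 3′ on the gene's strand, with capitals on matches to the letters searched: for NRF1, GCGCA and GCGC with any 1 base between them; for ETS factors such as GABPA, CCGGAAG; and for YY1, AAGATG directly followed by GCGGC. Both strands were searched, and matches to different motifs may overlap. The windows lie at chr5:218070-218319 (plus strand), chr1:17054033-17054282 (minus), chr12:95003698-95003947 (minus) and chr12:4648864-4649113 (plus).
SDHA: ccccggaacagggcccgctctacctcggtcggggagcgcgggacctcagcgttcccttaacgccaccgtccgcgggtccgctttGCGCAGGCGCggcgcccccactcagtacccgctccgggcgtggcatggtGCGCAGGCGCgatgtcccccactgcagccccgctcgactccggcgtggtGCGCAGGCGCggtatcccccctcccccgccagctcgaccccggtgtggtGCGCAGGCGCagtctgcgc
SDHB: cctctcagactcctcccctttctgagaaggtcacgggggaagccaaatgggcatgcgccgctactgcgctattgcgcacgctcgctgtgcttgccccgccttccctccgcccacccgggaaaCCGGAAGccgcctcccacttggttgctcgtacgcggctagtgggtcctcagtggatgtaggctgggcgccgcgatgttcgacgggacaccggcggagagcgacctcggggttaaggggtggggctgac
NDUFA12: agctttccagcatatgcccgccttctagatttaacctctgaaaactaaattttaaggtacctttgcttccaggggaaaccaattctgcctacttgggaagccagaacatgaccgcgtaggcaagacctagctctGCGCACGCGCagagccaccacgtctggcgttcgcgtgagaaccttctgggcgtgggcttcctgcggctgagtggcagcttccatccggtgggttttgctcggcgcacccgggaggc
NDUFA9: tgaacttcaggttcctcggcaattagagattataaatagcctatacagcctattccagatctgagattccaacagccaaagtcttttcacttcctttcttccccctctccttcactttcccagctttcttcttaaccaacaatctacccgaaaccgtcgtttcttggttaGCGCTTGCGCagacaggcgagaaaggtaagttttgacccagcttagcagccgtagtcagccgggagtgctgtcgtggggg
The SDHA window held 4 NRF1 matches and those of NDUFA12 and NDUFA9 held 1 each, while the SDHB window held 1 ETS match. With the 50 bases after the start included, 63 nuclear members matched a gene of the RefSeq table. The NRF1 letters were in 14 of these (22.2%), against 12.2% of the 11738 tested genes that matched and 6.98% of all 27305 genes of the promoter table. The ETS letters were in 18 (28.6%), against 20.8% and 12.2%, and the YY1 letters in 4 (6.35%), against 2.14% and 1.04%. Among the 13 matched members that were lower at 48 h, 5 held the NRF1 letters, 4 the ETS letters and 2 the YY1 letters. These 2 were SDHB and NDUFA9, whose YY1 letters reach past the 250 bases shown into the 50 after the start. None of the 11 matched complex IV genes held the NRF1 letters in this window.

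In complex V, the 3 genes of the c subunit, which encode the same mature protein of the rotating ring behind different import sequences, moved in different directions. ATP5G1 read 1567, 1545 and 1662 at 48 h against 2268, 2316 and 2702 in DMSO, and ATP5G3 3059, 3062 and 2863 at 48 h against 5185, 5268 and 4793 in DMSO. Both were lower with no overlap, with differences of −0.61 ± 0.18 (adjusted p = 0.0112) and −0.76 ± 0.14 (adjusted p = 1.41e-04). ATP5G2 read 3004, 2784 and 3503 at 48 h against 2079, 1938 and 2363 in DMSO, again with no overlap. It was higher by 0.54 ± 0.20 (adjusted p = 0.0456), a call that was lost in 18 of the alternatives tried, with an adjusted p of up to 0.161. Of the summed counts of the 3 genes, ATP5G2 made up 22.0% ± 1.8 in DMSO, 28.1% ± 3.6 at 4 h and 40.2% ± 3.1 at 48 h. Its share was 27.5% ± 1.5 in the INC424 line and 22.7% ± 2.3 in naive cells. ATP5J2, a membrane subunit beside the ring, read 813, 1122 and 1541 at 48 h against 1997, 2439 and 2318 in DMSO, a difference of −1.0 ± 0.27 (adjusted p = 0.00645). ATP5B was lower, with a difference of −0.50 ± 0.13 (adjusted p = 0.00427). From naive cells ATP5B differed by −0.27 ± 0.13 (adjusted p = 0.153) and ATP5G1 by 0.09 ± 0.18 (adjusted p = 0.782). The call of ATP5G1 was lost without DMSO library 3 (adjusted p = 0.0553) and that of ATP5J2 without library 1 at 48 h (0.0544).

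In complex IV, COX6B2, known as the testis isoform of subunit 6B, rose at 48 h, and the widely expressed COX6B1 did not pass the test. COX6B2 read 32.6, 52.6 and 67.2 in DMSO, 122, 179 and 103 at 4 h and 233, 283 and 266 at 48 h. It differed from DMSO by 1.41 ± 0.34 (adjusted p = 0.0108) at 4 h and 2.39 ± 0.34 (adjusted p = 1.13e-05) at 48 h. COX6B1 averaged 5268 ± 869.9 at 48 h and 4824 ± 72.3 in DMSO, a difference of 0.11 ± 0.26 (adjusted p = 0.78). The naive libraries spread widely for COX6B2, at 129, 404 and 357, so that 48 h differed from naive by −0.03 ± 0.34 (adjusted p = 0.967). The 4 h group differed from naive cells by −1.01 ± 0.34 (adjusted p = 0.0562), in the other direction from its difference from DMSO. The INC424 line read 62.4, 58.8 and 70.5, below every naive library, with a difference of −2.04 ± 0.34 (adjusted p = 9.54e-05), and the BMS911543 line 509, 412 and 407, above every one, with a difference of 0.73 ± 0.34 (adjusted p = 0.129). COX6B2 made up 8.06% ± 0.62 of the summed COX6B1 and COX6B2 counts in the BMS911543 line, 1.34% ± 0.34 in the INC424 line and 6.14% ± 3.97 in naive cells. Another gene on the same strand shares exonic bases with COX6B2 in GENCODE 29. COX5A was lower at 48 h, with 1035, 1124 and 1118 against 1792, 1626 and 1623 in DMSO and a difference of −0.62 ± 0.14 (adjusted p = 0.00109). From naive cells COX5A at 48 h differed by −0.04 ± 0.14 (adjusted p = 0.873). COX6B2 at 4 h lost its call without library 2 at 4 h (adjusted p = 0.08) or DMSO library 1 (0.0849).

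**Figure D3:**
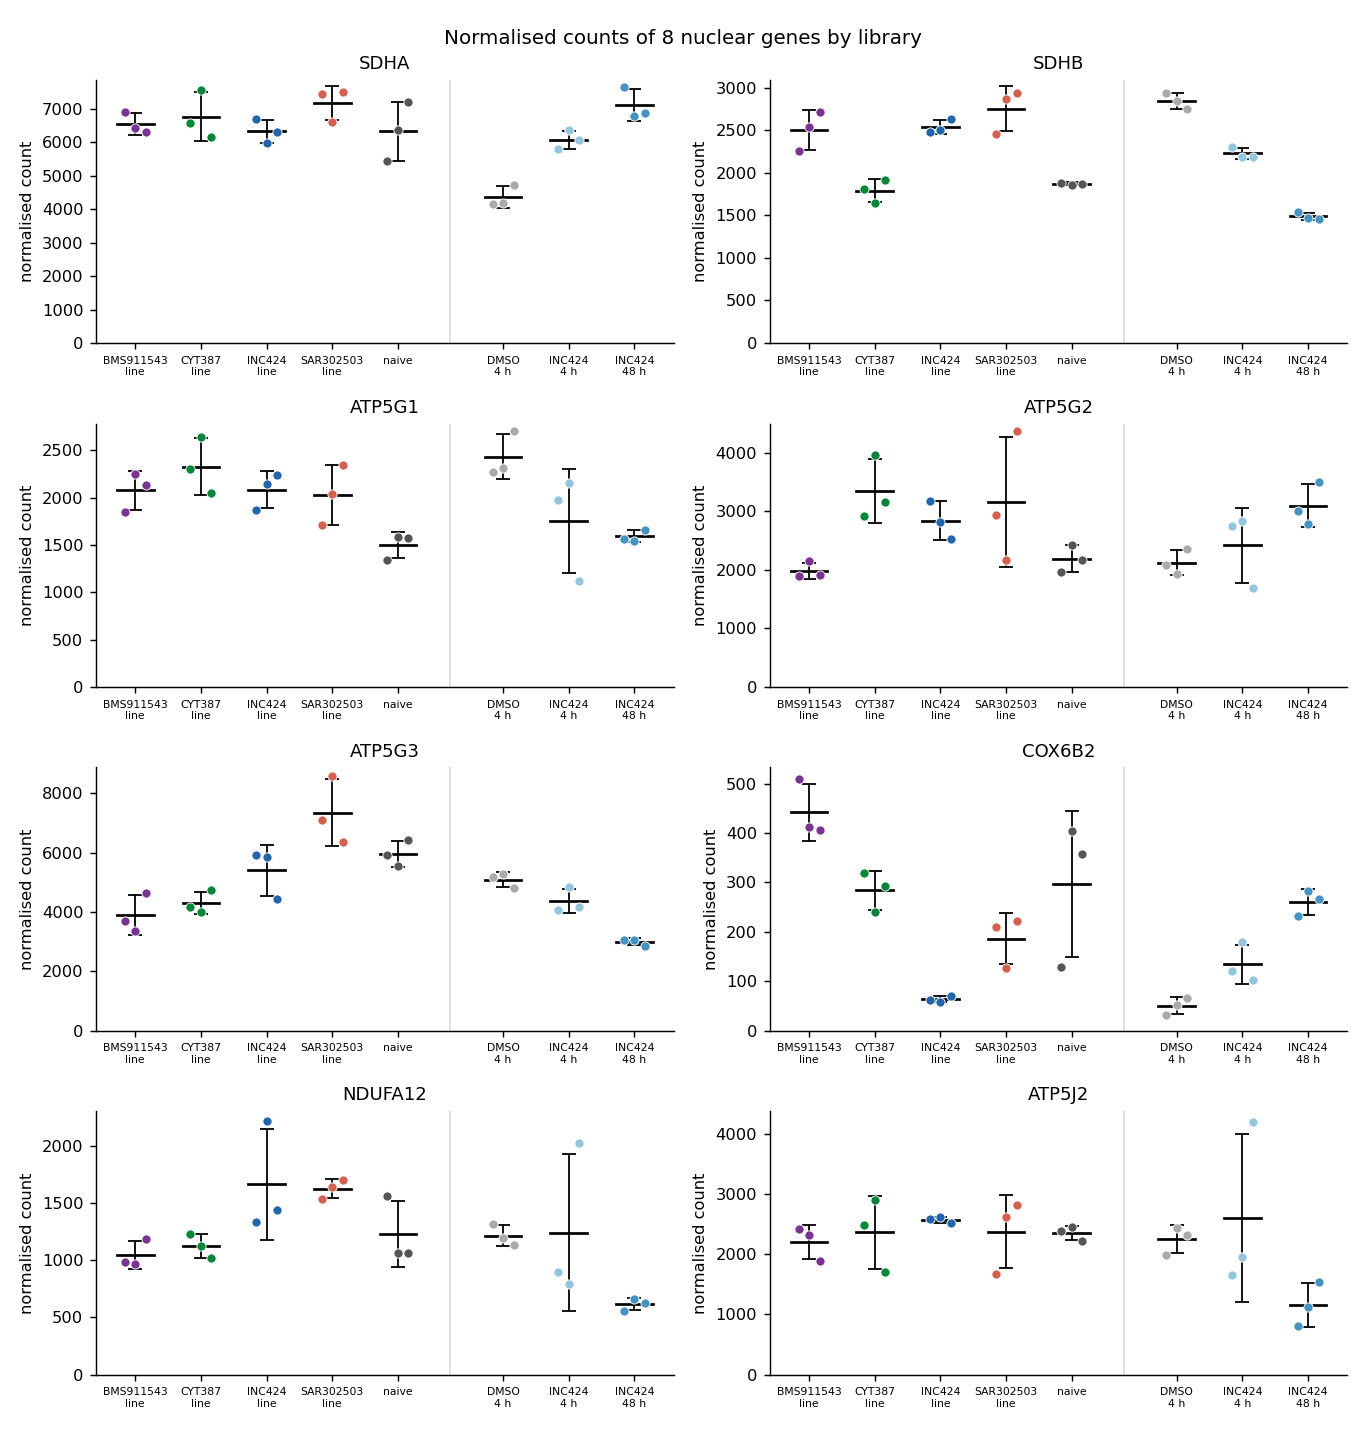
Normalised counts of SDHA, SDHB, the c subunit genes ATP5G1, ATP5G2 and ATP5G3, COX6B2, NDUFA12 and ATP5J2; each point is a library, bars are the mean and SD of 3. From DMSO over 4 h to 48 h of INC424 the SDHA points climb while the SDHB points drop to 1455 to 1538, and naive SDHA points overlap those at 48 h.

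The INC424 line, cultured in the drug, was set against naive cells given INC424 for 48 h. Here 33 of 76 nuclear members were higher and 1 lower, against 14.5% and 15.4% of all genes, with a median of 0.44, and 29.9% of all genes were called either way. By complex, 14 of 36 were higher in complex I, 1 of 4 in complex II, 4 of 7 in complex III, 6 of 12 in complex IV and 8 of 17 in complex V. NDUFA12 read 1336, 2222 and 1438 in the line against 555, 658 and 629.8 at 48 h, a difference of 1.40 ± 0.25 (adjusted p = 1.40e-04). ATP5J2 read 2581, 2626 and 2528 against 813, 1122 and 1541, a difference of 1.20 ± 0.27 (adjusted p = 0.0017). NDUFB6 differed by 1.17 ± 0.16 (adjusted p = 6.65e-06), NDUFB3 by 1.16 ± 0.16 (adjusted p = 5.77e-06) and NDUFA9 by 1.13 ± 0.14 (adjusted p = 2.19e-06). The lower gene was COX6B2, with a difference of −2.01 ± 0.34 (adjusted p = 8.96e-05). SDHB stood at 2538 ± 84.1 in the line and 1488 ± 43.6 at 48 h, a difference of 0.77 ± 0.09 (adjusted p = 1.72e-06), while SDHA differed by −0.17 ± 0.11 (adjusted p = 0.272).

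The comparisons of 48 h with DMSO and of the INC424 line with naive cells share no library. Of the 19 nuclear members lower at 48 h, 7 were higher in the line (36.8%), against 32.9% of all 76 nuclear members. These 7 were 28% of the 25 that were higher in the line, and 25% of all 76 were lower at 48 h, so the overlap was close to the shares of the whole set. The 7 were NDUFA6, NDUFA9, NDUFB3, NDUFB9, NDUFS5, SDHB and COX5A, and no member was lower in both. Against naive cells the 48 h difference did not pass the test for NDUFA6, NDUFS5 or COX5A. Of the 50 nuclear members with a log2 difference below 0 at 48 h, 42 (84%) were above 0 in the line, against 65 of all 76 (85.5%), again close to the whole set. COX6B2 was higher at 48 h and lower in the line.

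**Figure D4:**
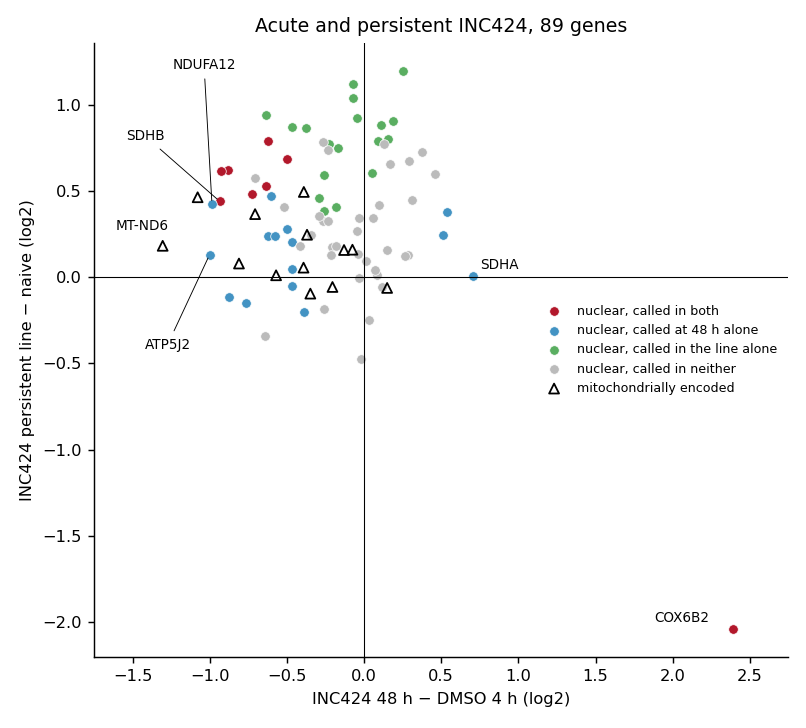
Log2 difference of each of the 89 genes at 48 h of INC424 against DMSO (horizontal) and in the INC424 persistent line against naive cells (vertical), coloured by which test the gene passed. The 7 genes in red at upper left were lower at 48 h and higher in the line; COX6B2 lies at lower right at 2.39 and −2.04.

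Few tests passed among the mitochondrially encoded genes, whose medians lay on the other side of 0 from the nuclear ones in the SAR302503 line and on the same side in the other lines and in INC424-treated cells against DMSO. At 48 h against DMSO the mitochondrial median was −0.39 and the nuclear one −0.21, and in the INC424 line against 48 h they were 0.39 and 0.44. In the persistent lines limma made 1 call among the 13 genes, MT-ATP8 in the SAR302503 line, with 3 genes at an unadjusted p below 0.05 in the BMS911543 line, 1 in the CYT387 line, 0 in the INC424 line and 5 in the SAR302503 line. Their summed share of reads was 3.13% ± 0.39 in the BMS911543 line, 2.97% ± 1.63 in the CYT387 line, 2.49% ± 0.72 in the INC424 line and 1.80% ± 0.50 in the SAR302503 line, against 2.06% ± 0.44 in naive cells. The BMS911543 libraries lay above all naive ones (exact two-sided permutation p = 0.10, the smallest possible), and the other lines overlapped them. In the CYT387 line library 2 alone gave 4.85%, and without it the line differed from naive cells by −0.0279 percentage points. In the SAR302503 line library 1 gave 1.22%, and without it the difference turned to 0.0275 points. The share was 2.57% ± 0.07 in DMSO, 2.38% ± 0.41 at 4 h and 2.08% ± 0.08 at 48 h, with no overlap between DMSO and 48 h (exact two-sided permutation p = 0.10).

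The SAR302503 line was where the genomes parted most in the medians. Its nuclear median was 0.46 and its mitochondrial median −0.53 on the log2 scale, and 12 of 13 mitochondrial genes lay below naive. These genes were read in the same libraries and are not independent, and the 3 of complex IV had a median of −0.02. By library, the median of the 13 genes against the naive mean was −1.08, −0.34 and −0.35 in the line. In naive libraries it was 0.41, −0.26 and −0.20. In the BMS911543 line all 13 lay above naive, with a median of 0.54 against a nuclear median of 0.08. MT-CYB, the cytochrome b of complex III, read 9911, 17410 and 21051 in the SAR302503 line, 60011, 53913 and 43582 in the BMS911543 line and 35805, 24249 and 24816 in naive cells. Its differences from naive were −0.86 ± 0.33 (adjusted p = 0.0774) and 0.90 ± 0.33 (adjusted p = 0.052), neither past the threshold. The F test among the 4 lines did call it, with an adjusted p of 9.97e-04 and a largest gap between lines of 1.76. MT-CO1, the catalytic subunit of complex IV, averaged 196910 ± 58136 in the SAR302503 line and 246390 ± 44589 in the BMS911543 line, and the same test gave it an adjusted p of 0.708.

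Per kilobase of gene length in GENCODE 29, mean normalised counts over the 24 libraries ran from 163380 for MT-CO2 and 137110 for MT-CO1 over 31998 for MT-ATP6 and 18378 for MT-ND5 to 7741 for MT-ND6 and 1817 for MT-ATP8. MT-ATP8 and MT-ATP6, the membrane subunits of ATP synthase, share a message and overlap by 46 bases. MT-ATP8 is shown because it was the gene called in a line. It lies at chrM:8366-8572 (GRCh38, plus strand), 207 bases long, and capitals mark the bases shared with MT-ATP6.
MT-ATP8: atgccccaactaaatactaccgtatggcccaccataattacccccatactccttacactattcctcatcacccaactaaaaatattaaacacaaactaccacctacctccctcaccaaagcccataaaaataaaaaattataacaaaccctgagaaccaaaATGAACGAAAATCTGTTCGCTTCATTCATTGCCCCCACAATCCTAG
Reads across these bases match both genes, and how the counting treated them is not given in the sources used here. MT-ATP8 read 18.4, 45.7 and 207 in the SAR302503 line against 575, 327 and 316 in naive cells, with no overlap, and differed by −2.77 ± 0.69 (adjusted p = 0.00666). The call was lost without library 1 of the line (adjusted p = 0.0609) and with sample quality weights (0.0661). MT-ATP6 read 7944, 13222 and 16865 in the line against 23791, 13837 and 14332, groups that overlap, with a difference of −0.47 ± 0.38 (adjusted p = 0.434).

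MT-ND6, a complex I subunit and the one message of the opposite strand, was the mitochondrial gene called in acute treatment. It read 5842, 7352 and 6216 in DMSO, 2444, 2545 and 2442 at 4 h and 2899, 2496 and 2445 at 48 h. Both INC424 groups lay below every DMSO library, and 48 h differed from 4 h by 0.07 ± 0.36 (adjusted p = 0.926). The differences from DMSO were −1.38 ± 0.36 (adjusted p = 0.017) at 4 h and −1.30 ± 0.36 (adjusted p = 0.00667) at 48 h. Naive libraries read 5659, 2929 and 3544. From them 48 h differed by −0.58 ± 0.36 (adjusted p = 0.278) and 4 h by −0.65 ± 0.36 (adjusted p = 0.261). Its neighbour on the other strand, MT-ND5, read 35337, 31932 and 31209 at 48 h against 29490, 30533 and 28654 in DMSO, a difference of 0.15 ± 0.29 (adjusted p = 0.743). The log2 ratio of MT-ND6 to MT-ND5 counts was −2.20 ± 0.14 in DMSO, −3.50 ± 0.09 at 4 h and −3.65 ± 0.04 at 48 h, and −2.98 ± 0.19 in naive cells. The MT-ND6 message ends differently from the others and is known to lack a stable poly(A) tail, and the libraries were made from poly(A) RNA. In CYT387 library 2 it read 1036, the lowest of all libraries, where MT-ND5 read 76992, the highest. The INC424 line differed from 48 h in MT-CO2, which read 153920, 168890 and 97258 in the line and 73526, 78548 and 84614 at 48 h, a difference of 0.79 ± 0.28 (adjusted p = 0.0365). MT-ND6 at 4 h lost its call without any 1 library at 4 h or DMSO library 2 (adjusted p of 0.0545 to 0.0747). MT-CO2 lost its call without library 1 or 2 of the line or any 1 library at 48 h (0.0608 to 0.152).

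**Figure D5:**
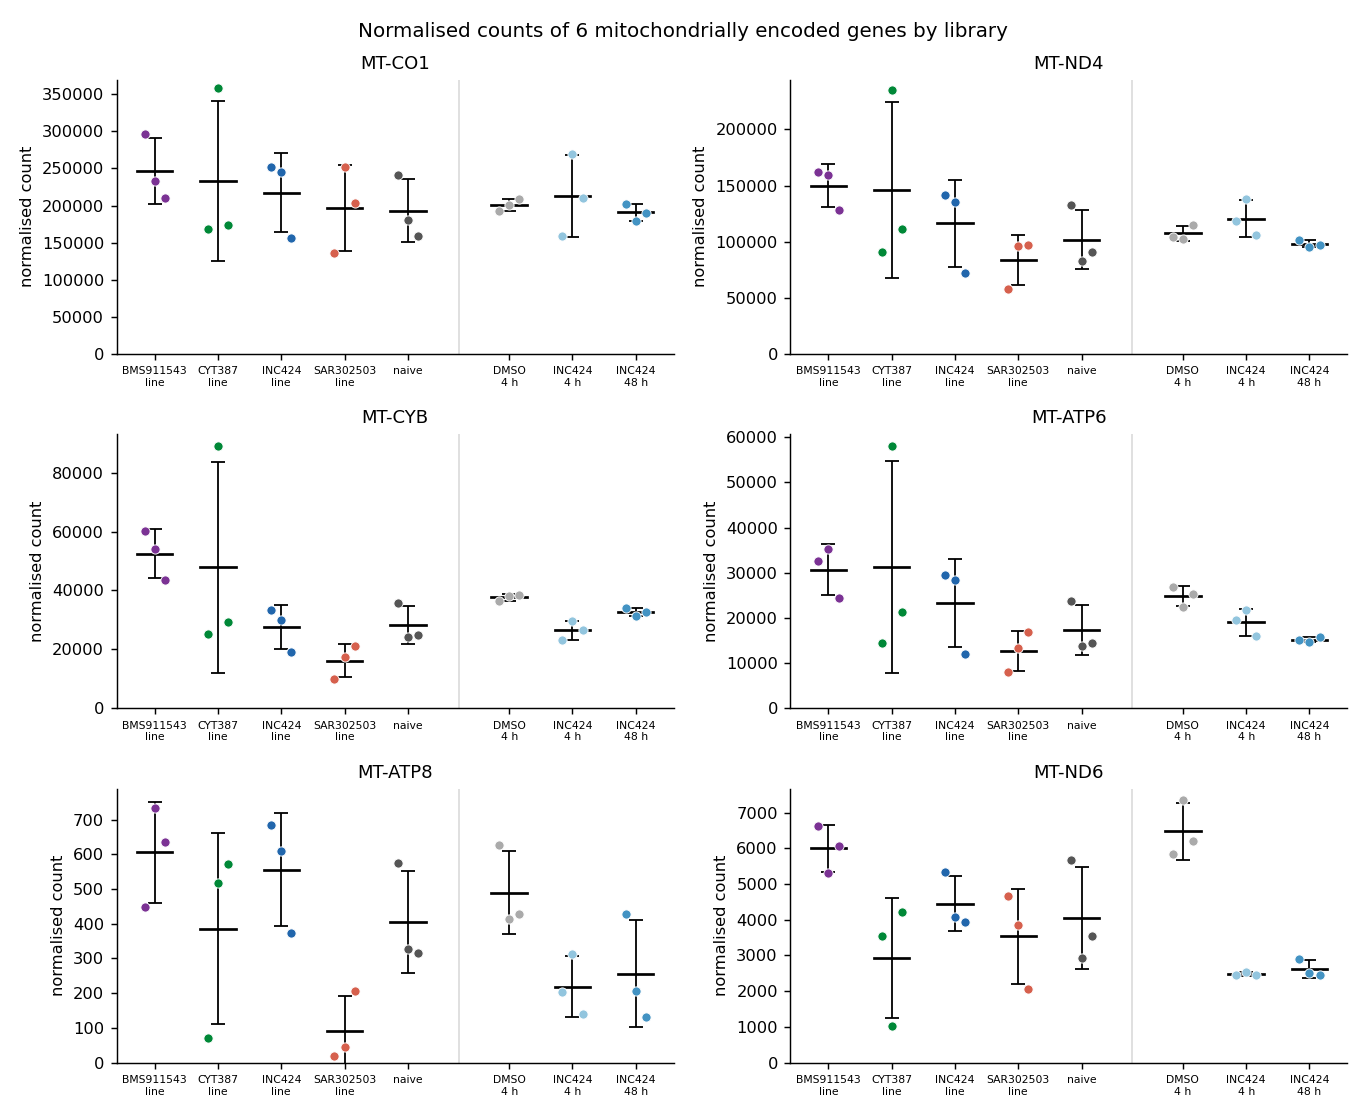
Normalised counts of MT-CO1, MT-ND4, MT-CYB, MT-ATP6, MT-ATP8 and MT-ND6; each point is a library, bars are the mean and SD of 3, and a bar that would run below 0 is cut there. MT-ND6 is at 2442 to 2899 in both INC424 groups against 5842 to 7352 in DMSO, and CYT387 line library 2 is highest for MT-CO1, MT-ND4, MT-CYB and MT-ATP6.

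The 4 lines were compared with each other by an F test, which called 47 of 89 members, 39 nuclear and 8 mitochondrial. Of all genes 47.1% were called, so the members' share was near the background. The nuclear genes with the clearest differences included NDUFS1, which read 2622, 2142 and 2529 in the CYT387 line and 4808, 4840.1 and 3967 in the SAR302503 line, against 4081, 3205 and 3364 in naive cells. It was lower in the CYT387 line, with a difference of −0.54 ± 0.11 (adjusted p = 9.16e-04), and higher in the SAR302503 line, with 0.36 ± 0.11 (adjusted p = 0.0212), and the F test gave an adjusted p of 2.66e-06. ATP5G3 averaged 7347 ± 1131 in the SAR302503 line, 5402 ± 849 in the INC424 line, 4299 ± 377 in the CYT387 line and 3897 ± 658 in the BMS911543 line (F test, adjusted p = 5.03e-05). NDUFC2 averaged 1260.2 ± 82.9, 912 ± 68.9, 705 ± 75.7 and 620.1 ± 19 in the same order (adjusted p = 3.83e-05). COX6B2 spanned the widest gap of the nuclear members among the lines, 2.77, with the INC424 line lowest and the BMS911543 line highest. The inhibitors are compared here as lines and not as doses, since no concentrations are given. NDUFS1 in the SAR302503 line lost its call against naive without library 1 or 2 of the line or naive library 2 or 3 (adjusted p of 0.0779 to 0.112).

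Other genes of the pathway were read from lists of known function. At 48 h against DMSO, where 16.4% of all genes were lower and 17.6% higher, 13 of 47 assembly factors were lower (27.7%) and 4 higher. Of 74 mitochondrial ribosomal proteins tested 30 were lower (40.5%) and 4 higher, of 28 genes of mitochondrial transcription and RNA handling 16 were lower (57.1%) and 2 higher, and of 17 citric acid cycle genes 9 were lower (52.9%). The medians were −0.12, −0.39, −0.65 and −0.39 on the log2 scale, against 0.00 for all genes. Of the 10 carriers tested 5 were lower, of 9 regulators of biogenesis 3 were lower and 1 higher, and of 10 subunits that the symbol rule missed 3 were lower.

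These counts also varied with the control. In DMSO against naive cells 12 assembly factors were higher and 3 lower, 24 ribosomal proteins higher and 5 lower, and 8 RNA handling genes higher and 1 lower, against 11.4% and 14.6% of all genes, with medians of 0.17, 0.27 and 0.32 against 0.02 for all genes. The citric acid cycle had 4 higher and 2 lower, with a median of 0.13. With naive cells as the control of 48 h, a comparison added after the values were seen, 6 assembly factors were lower (12.8%) and 3 higher, and 17 ribosomal proteins lower (23%) and 6 higher. There 8 RNA handling genes (28.6%) and 9 citric acid cycle genes (52.9%) were lower, with 0 and 1 higher, where 11.4% of all genes were lower. The medians were −0.09, −0.11, −0.29 and −0.36 in the same order, against 0.05 for all genes.

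In the INC424 line against 48 h, where 14.5% of all genes were higher and 15.4% lower, 19 assembly factors were higher (40.4%) and 2 lower, and 28 ribosomal proteins higher (37.8%) and 2 lower. There 8 transcription and RNA handling genes (28.6%), 13 citric acid cycle genes (76.5%) and 6 carriers (60%) were higher and none of them lower. The medians of the 5 lists were 0.29, 0.36, 0.17, 0.53 and 0.47, against −0.02 for all genes.

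CYCS, the electron carrier cytochrome c, averaged 985 ± 92.6 at 48 h against 3369 ± 390.3 in DMSO, a difference of −1.77 ± 0.18 (adjusted p = 1.46e-07). In naive cells it averaged 1436 ± 208. NDUFAF4, a complex I assembly factor, averaged 215 ± 17.1 at 48 h against 645 ± 34.2, a difference of −1.58 ± 0.16 (adjusted p = 1.34e-07). ATPAF1, an assembly factor of the ATP synthase head, averaged 2494 ± 97.3 in the INC424 line against 785 ± 63.7 at 48 h, a difference of 1.67 ± 0.14 (adjusted p = 5.68e-09). Among RNA handling genes, SLIRP, which stabilises mitochondrial messages, differed by −1.32 ± 0.16 (adjusted p = 1.21e-06) at 48 h, and the polynucleotide phosphorylase PNPT1 by −1.39 ± 0.16 (adjusted p = 1.03e-06). Against naive cells the 48 h differences were −0.54 ± 0.18 (adjusted p = 0.0381) for CYCS, −0.74 ± 0.16 (adjusted p = 0.00208) for NDUFAF4, −0.62 ± 0.16 (adjusted p = 0.00725) for SLIRP and −0.35 ± 0.16 (adjusted p = 0.133) for PNPT1, the last not past the threshold. TFAM, which packages and transcribes mitochondrial DNA, was lower at 48 h than at 4 h, with a difference of −0.66 ± 0.16 (adjusted p = 0.00643).

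PPARGC1B, a coactivator of mitochondrial biogenesis, averaged 595 ± 55.7 at 48 h against 2007 ± 61.6 in DMSO, a difference of −1.76 ± 0.13 (adjusted p = 1.60e-09). It averaged 489 ± 73 in the INC424 line and 517 ± 86 in the SAR302503 line against 958 ± 52 in naive cells, with differences of −0.98 ± 0.13 (adjusted p = 4.70e-06) and −0.90 ± 0.13 (adjusted p = 2.16e-05). Both differences run against those of the nuclear members in the same lines, and the comparisons share the naive libraries. The related PPRC1 differed by −1.18 ± 0.11 (adjusted p = 3.86e-08) and the nuclear receptor ESRRA by −0.81 ± 0.21 (adjusted p = 0.00453) at 48 h. From naive cells the 48 h group differed by −0.69 ± 0.13 (adjusted p = 5.58e-04) in PPARGC1B, −0.38 ± 0.11 (adjusted p = 0.0163) in PPRC1 and −0.14 ± 0.21 (adjusted p = 0.686) in ESRRA, which did not pass the test. NRF1, for whose letters promoters were searched, was higher in the SAR302503 line by 0.48 ± 0.14 (adjusted p = 0.0159).

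Sequencing runs differed between libraries, since 9 were run again or on 2 lanes. Among libraries run once, 12 members were called in the INC424 line, 2 in the SAR302503 line (1 library of it left), 8 at 48 h (1 DMSO library left) and 21 in the INC424 line against 48 h (2 libraries each). Among those run again or on 2 lanes, 14 were called at 48 h (1 library against 2) and 18 in the line against 48 h (1 against 1), and no naive library was of that kind. A lone library was assumed to vary like the other groups of its fit, which had 7 residual degrees of freedom for libraries run once and 3 for the others, so these counts are a weak check on the run. With a term for the run in the fit of all libraries, each of these counts stayed within 1.5 times the count without it. Of the nuclear members, 37 of 76 share exonic bases with another gene in GENCODE 29, for 19 of them a gene of the table, so their counts are less certain. The SDHA, SDHB, NDUFA12, COX7B and UQCR10 exons overlap no other gene there.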

How the data were processed

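RNA of 24 libraries, 3 in each of 8 groups, was measured by poly(A) selection, RNase III fragmentation and Ion Proton sequencing, per the labels' protocols. The authors deposited 1 table of normalised counts (a signal: reads per gene divided by 1 size factor per library). Builds hg19 and GRCh37 and the tools HTSeq 0.5.3p3, BWA 0.7.5.1 and DESeq 1.10.1 stand, with no role, in the submitters' processing notes; the counting of overlapping and antisense reads is not given in the sources used here. Whole reads were recovered from the steps of the values (100% within 0.01 of a whole number), although in 3 libraries the step was within 0.01 of 1 and rounding could not be told apart. Depth was 21770721 to 36160750 reads per library.

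Values were log2(value + 1) transformed, and genes with at least 10 normalised counts in at least 3 libraries (20154) entered 1 limma 3.58.1 fit of all groups with an intensity trend (16 residual degrees of freedom, R 4.3.3). Tests were two-sided, adjusted by Benjamini-Hochberg over all genes, with a threshold of 0.05. Because of the pseudocount, changes of low genes are understated. Shares were compared by an exact permutation test (scipy 1.17.1). edgeR 4.0.16 and DESeq2 1.42.0 on the recovered reads, other scalings, filters, pseudocounts and left-out libraries were alternatives. The named genes were all mitochondrial members, up to 4 rises and 4 falls per comparison whose groups did not overlap, the core subunits, the isoform sets, and up to 3 per list; other members were named after their values were seen. Members and lists were chosen with earlier results of these data known. The values of 1 gene, although counted, are not reported here. The tests were checked on simulated data. Gene overlaps and lengths came from GENCODE 29 and promoters from RefSeq, both on GRCh38, used only for names, overlaps, lengths and sequences.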

Additional observations from a re-analysis of the deposited data

Results flagged for a closer look

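NDUFS1 differed between the persistent lines. It averaged 2431 ± 254 in the CYT387 line, 4538 ± 495 in the SAR302503 line, 4161 ± 92.9 in the INC424 line and 3636 ± 42.3 in the BMS911543 line, against 3550 ± 467 in naive cells, and limma's F test of the difference among the lines gave an adjusted p of 2.66e-06. Each inhibitor had a single group of persistent libraries, and the labels give no clone, so inhibitor and line cannot be told apart. The same test found 47 of 89 members to differ among the 4 lines, where 47.1% of all genes did. Epithelial reads were highest in a CYT387 library, and their part in these differences was not tested.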

How the results depend on the processing

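Counts here are members called by an adjusted p under 0.05, higher and lower together, and the cause of each change was not tested. A fit of the compared groups alone called 28 in the BMS911543 line (15 in the fit of all groups), 1 in the CYT387 line (21), 29 at 4 h (6), 52 at 48 h (24), 32 at 48 h against 4 h (10) and 23 among lines (47). Sample quality weights called 45 in the BMS911543 line, 50 in the INC424 line, 46 for the mean of the lines, 31 at 4 h, 50 at 48 h, 27 at 48 h against 4 h, 56 in the INC424 line against 48 h and 43 in DMSO against naive. Without the 4 libraries richest in epithelial RNA (CYT387 library 2, SAR302503 library 3, INC424 line library 2, 48 h library 3), counts were 34 in the BMS911543, 43 in the INC424 and 47 in the SAR302503 line, 18 at 4 h and 31 in DMSO against naive. Among alternatives chosen after seeing the data, libraries run once gave 12 in the INC424 line, 2 in the SAR302503 line, 15 for the mean of the lines, 0 at 4 h, 8 at 48 h, 2 at 48 h against 4 h, 21 in the INC424 line against 48 h, 3 in DMSO against naive and 14 among lines. Those run again or on 2 lanes gave 2 at 4 h, 14 at 48 h, 1 at 48 h against 4 h and 18 in the INC424 line against 48 h. In these splits 1 library was left of the SAR302503 line, the 4 h group and DMSO among those run once, and of the 48 h group and the INC424 line among the others; its spread was taken from the other groups. Naive cells in place of DMSO, also chosen later, gave 6 at 4 h and 16 at 48 h. The 6 at 4 h were NDUFC2, UQCRB, COX7A2L, COX7C, ATP5G3 and ATP5H, all lower. None of the members called at 4 h against DMSO was among them.

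Leaving out 1 library gave 10 to 29 in the BMS911543 line, 12 to 32 in the CYT387 line, 14 to 36 in the INC424 line, 19 to 45 in the SAR302503 line, 16 to 31 for the mean of the lines, 2 to 13 at 4 h, 6 to 13 at 48 h against 4 h, 20 to 34 at 48 h, 28 to 42 in the INC424 line against 48 h, 13 to 24 in DMSO against naive and 35 to 60 among lines. Without CYT387 library 2, counts were 29 in the BMS911543, 45 in the SAR302503 and 12 in the CYT387 line, and 13 at 4 h. Without CYT387 library 1 the CYT387 line gave 32, and without INC424 line library 3 the INC424 line gave 17. Without naive library 3, counts were 12 in the CYT387, 14 in the INC424 and 19 in the SAR302503 line and 16 for the mean. Without library 2 or 3 at 4 h, or DMSO library 1 or 2, 4 h gave 2, and without 4 h library 3 or 48 h library 1, 48 h against 4 h gave 6. The mitochondrial share of the CYT387 line minus naive ranged from −0.0279 to 1.45 points (reversed without CYT387 library 2), and that of the SAR302503 line from −0.443 to 0.0275 (reversed without its library 1). The nuclear share of the 12 line libraries minus naive ranged from 0.0908 to 0.136 points, with p = 0.0659 without naive library 2 and 0.0769 without naive library 3 (exact permutation).

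Replicate numbers do not pair these samples: same-numbered libraries deviated together with r from −0.43 to 0.311 (median −0.006, 84 pairs), and 3 of 24 libraries correlated best with their own number. With the replicate block, 24 members were called in the INC424 line, 31 in the SAR302503 line, 24 at 48 h and 34 in the INC424 line against 48 h, while ATP5G2 at 48 h had an adjusted p of 0.0591. Of 124 named changes under 40 settings none changed direction, 68 stayed called under each setting, and 303 of 4960 values lost the call. Those settings did not include naive cells in place of DMSO or the splits by run. With naive cells as the control, some acute changes turned sign, such as COX6B2 (−1.01) and SDHB (0.25) at 4 h and ATP5G1 (0.09) at 48 h. Others kept it, such as MT-ND6 at 4 h (−0.65) and SDHB at 48 h (−0.33). NDUFA12 at 48 h against 4 h lost its call without 4 h library 3 (adjusted p = 0.153) or 48 h library 1 (0.0744).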
